A study of Sus scrofa with 12 samples.

Results

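The genes described here are S100A8, S100A9, S100A12, CSF3R and DEFB128, which were found by their names among the 20674 genes counted in pig endometrium. These 5 genes were chosen after their levels over the 4 dietary groups of this experiment had been seen, so their levels and fold changes are given as a description, with no p-value. How many of them passed the threshold used for all genes is stated beside the share of all genes, and nothing is read from those counts. No such share is given for groups that do not overlap, so nothing is read from overlap either. Endometrium came from Landrace × Yorkshire multiparous sows, fed from breeding over 114 days of gestation. L − N received a low-fiber (LF) diet with 3.73% crude fiber and no supplement, and served as the control. L + N received the same diet with 0.05% N-carbamylglutamate (NCG), a stable analog of the N-acetylglutamate that activates arginine synthesis. H − N received a high-fiber (HF) diet with 7.46% crude fiber, made by replacing part of the corn with soybean bran and beet pulp, and H + N received that diet with 0.05% NCG. Each group had 3 libraries of poly(A) RNA, 12 in all. The labels name neither the sow behind a library nor a batch, so the spread between libraries is taken here as the spread between sows.

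S100A8 and S100A9 are small calcium-binding proteins that pair to form calprotectin, which neutrophils store in their cytosol in large amounts and which withholds zinc and manganese from microbes. Outside the cell S100A8 and S100A9 are ligands of the receptor TLR4, and S100A12, a related neutrophil protein, is a ligand of the receptor AGER. CSF3R is the receptor for granulocyte colony-stimulating factor, the cytokine that drives the production and survival of neutrophils through JAK and STAT3. DEFB128 belongs to another class, the β-defensins, which are short cationic antimicrobial peptides made by epithelia. Neutrophils enter the endometrium around mating, parturition and infection. In RNA of whole tissue, fewer cells of a type and less RNA per cell cannot be told apart.

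The 3 S100 genes lay side by side on chromosome 4 of Sscrofa11.1. S100A8 (gene ID 100127488) spanned chr4:96209670-96210603 on the plus strand, S100A12 (100301483) chr4:96225691-96227030 on the plus strand, and S100A9 (100127489) chr4:96236114-96238989 on the minus strand. The gap was 15087 bp between S100A8 and S100A12 and 9083 bp between S100A12 and S100A9. CSF3R (100622336) lay at chr6:92550159-92565798 on the minus strand, and DEFB128 (106505985) at chr17:34948185-34965455 on the plus strand. None of the 5 genes overlapped another annotated gene. All 5 were among the 15351 genes with enough counts to be tested.

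Total counts lay between 14369781 and 19309724 per library. Epithelial and stromal genes were high in all of them, with a mean of 559 CPM (read counts scaled to library size with TMM factors) for CDH1, 259 CPM for EPCAM and 16860 CPM for the collagen gene COL3A1. The genes described here were low in comparison. Per transcript length, their mean levels over the 12 libraries were 17.9 FPKM for S100A12, 8.22 FPKM for S100A9, 5.49 FPKM for S100A8, 4.46 FPKM for CSF3R and 2.28 FPKM for DEFB128.

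S100A8, S100A9 and S100A12 were highest in the same few libraries and lowest in H + N. In L − N, S100A8 was at 0.191, 0.940 and 1.14 CPM in replicates 1, 2 and 3. In L + N it was at 2.81, 4.19 and 0.131 CPM, and in H − N at 0.570, 0.277 and 15.3 CPM. In H + N it was at 0, 0.109 and 0.368 CPM, where the 0 allows up to 0.198 CPM (3 counts). H − N replicate 3 alone held 58.8% of the S100A8 level summed over the 12 libraries, and every pair of neighboring groups in the order of the medians (L + N, L − N, H − N, H + N) overlapped. The means were 0.758 ± 0.501 CPM for L − N libraries, 2.38 ± 2.06 for L + N libraries, 5.38 ± 8.59 for H − N libraries and 0.159 ± 0.189 for H + N libraries (SD, n = 3).

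S100A9, the partner of S100A8 in calprotectin, had the widest range. It was at 0.636, 3.38 and 1.34 CPM in L − N, and at 5.97, 9.95 and 0.719 CPM in L + N. In H − N it was at 1.71, 0.208 and 53.7 CPM, and in H + N at 0.198, 0.109 and 0.368 CPM. H − N replicate 3 held 68.6% of its summed level. In the order of the medians (L + N, H − N, L − N, H + N) the first 3 groups overlapped their neighbors, whereas every L − N library was above every H + N library. The mean was 1.79 ± 1.43 CPM for L − N libraries, 5.55 ± 4.63 for L + N libraries, 18.5 ± 30.5 for H − N libraries and 0.225 ± 0.132 for H + N libraries (SD, n = 3).

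S100A12 was the most abundant of the 3 per transcript length. It was at 1.72, 9.40 and 3.09 CPM in L − N, and at 14.7, 16.5 and 2.03 CPM in L + N. In H − N it was at 1.97, 0.485 and 27.2 CPM, and in H + N at 0.461, 0.163 and 0.429 CPM. All 3 H + N libraries lay below all 9 others, while the other 3 groups overlapped. Averages were 4.74 ± 4.10 CPM for L − N libraries, 11.07 ± 7.89 for L + N libraries, 9.90 ± 15.0 for H − N libraries and 0.351 ± 0.164 for H + N libraries (SD, n = 3), and the medians ran in the order L + N, L − N, H − N, H + N.

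CSF3R was detected with at least 50 counts in each library, and its groups overlapped throughout. It was at 4.33, 31.0 and 12.6 CPM in L − N, and at 46.6, 9.89 and 5.56 CPM in L + N. In H − N it was at 6.42, 3.47 and 48.8 CPM, and in H + N at 3.36, 3.75 and 9.38 CPM. In each group the highest library was more than 2 times the second, and the medians ran in the order L − N, L + N, H − N, H + N. Averages were 15.97 ± 13.6 CPM for L − N libraries, 20.7 ± 22.5 for L + N libraries, 19.6 ± 25.4 for H − N libraries and 5.495 ± 3.37 for H + N libraries (SD, n = 3).

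On the log2 scale, differences between groups held 82.9% of the sum of squares of DEFB128, a gene chosen on these levels. On the scale of CPM, L − N replicate 2 held 42.6% of its summed level, and the 3 highest libraries held 78.2%. In the L − N libraries DEFB128 was at 2.1, 13.6 and 8.46 CPM, and in the L + N libraries at 1.16, 2.91 and 1.11 CPM. In the H − N libraries it was at 0.414, 0.485 and 0.896 CPM, and in the H + N libraries at 0.461, 0.163 and 0.184 CPM. All 6 low-fiber libraries were above all 6 high-fiber libraries. The share of all genes tested that separate in this way is not given, so nothing is read from this. L − N and L + N overlapped, as did H − N and H + N, while L + N and H − N, next to each other in the order of the medians, did not. The means stepped down from 8.05 ± 5.76 CPM for L − N libraries through 1.73 ± 1.02 for L + N libraries and 0.599 ± 0.260 for H − N libraries to 0.269 ± 0.167 for H + N libraries (SD, n = 3). The counts behind the lowest values were few, with 3 to 13 reads in each high-fiber library.

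**Figure D1:**
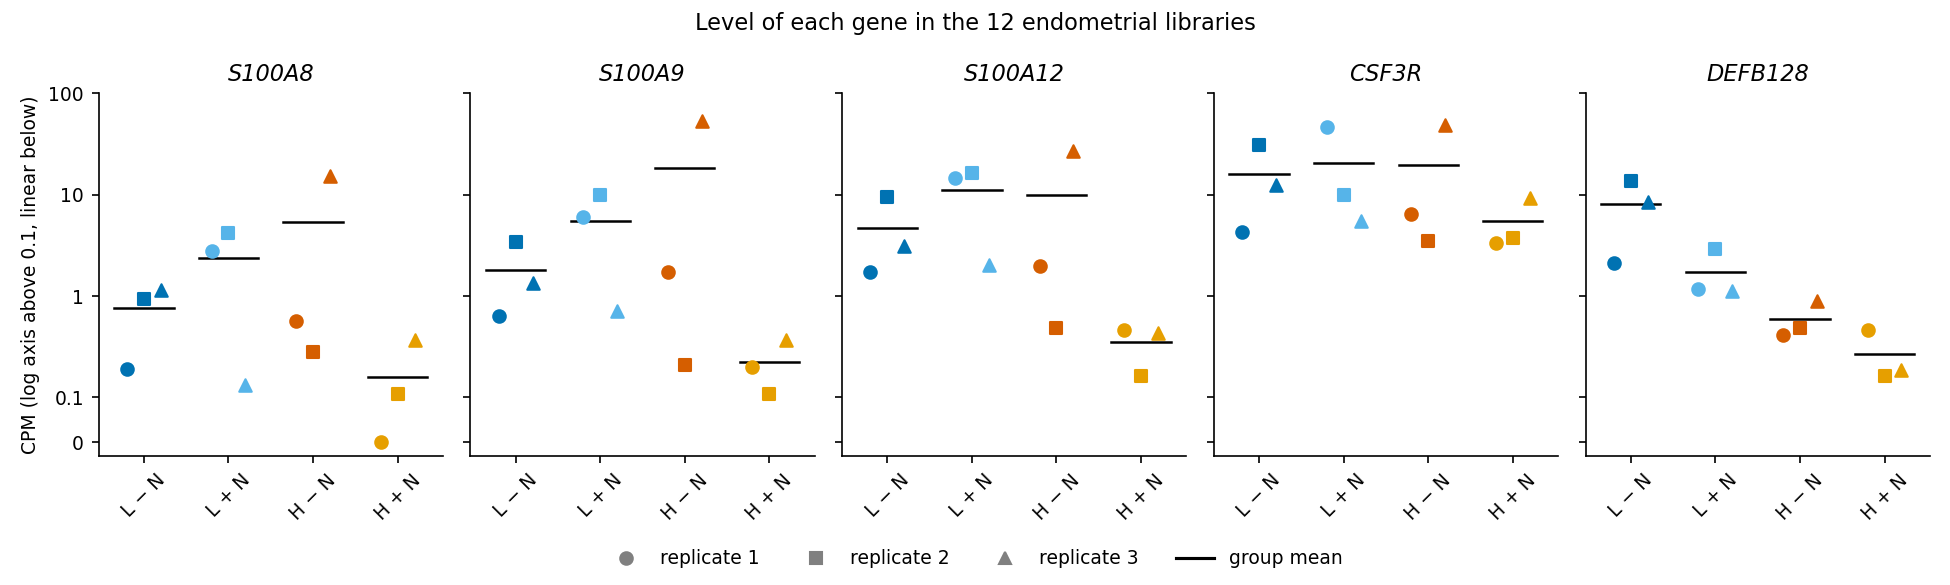
Level of each gene in CPM (vertical axis, logarithmic above 0.1 CPM and linear below) in the 12 libraries, by group (horizontal axis). Points are libraries, marker shapes are replicate numbers and black lines are group means. The highest point of S100A8, S100A9, S100A12 and CSF3R is H − N replicate 3, at 15.3, 53.7, 27.2 and 48.8 CPM, and DEFB128 steps down from L − N to H + N.

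The spread within groups was the leading feature of the S100 genes and CSF3R. The pooled SD within groups, on the scale of log2 CPM, was 2.19 for S100A9, 1.95 for S100A8, 1.76 for S100A12, 1.498 for CSF3R and 0.86 for DEFB128, against a median of 0.28 over the genes tested. Among those genes, 99.9%, 99.7%, 99.6% and 99.1% had a smaller SD than S100A9, S100A8, S100A12 and CSF3R, and 93.6% a smaller one than DEFB128. Among genes of similar mean CPM the shares were 99.8%, 99.0%, 99.1% and 99.5% in the same order, and 83.1% for DEFB128. Counting error was a small part of this spread where counts were high. In H − N, the coefficient of variation of S100A9 was 164%, while counting error alone gave 6.07%, and for CSF3R the values were 129.7% and 5.83%. In H + N the S100 counts were too few for such a statement, since S100A8 varied by 119% and counting error alone gave 61.2%. Differences between groups held 82.9% of the sum of squares of DEFB128 and 53.5% of that of S100A12. The share was 37.6% for S100A9, 32.3% for S100A8 and 17.5% for CSF3R. The genes were chosen on their group levels and the share over all genes tested is not given, so nothing is read from these shares.

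The comparisons asked how fiber and NCG, alone and together, were associated with endometrial expression. Genes were taken to pass, that is, to differ in expression, when the adjusted p-value was under 0.05 (edgeR quasi-likelihood test, Benjamini-Hochberg over all 15351 genes) and the log2 fold change exceeded 1 in size. In H − N against L − N, 2.91% of the genes tested passed. The log2 fold change was 2.81 (SE 1.44) for S100A8, 3.36 (SE 1.48) for S100A9, 1.06 (SE 1.16) for S100A12 and 0.29 (SE 1.04) for CSF3R. Without H − N replicate 3 the 4 values turned negative, to −0.80, −0.86, −1.91 and −1.68. DEFB128 was at −3.75 (SE 0.716). Of the 5 genes, 1 (DEFB128) passed, a count that follows from how the genes were chosen.

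In L + N against L − N, 3.99% of the genes tested passed and none of the 5 did. The S100 genes had positive values with all 12 libraries and with each library left out, at 1.65 (SE 1.42) for S100A8, 1.63 (SE 1.43) for S100A9 and 1.23 (SE 1.16) for S100A12 on the log2 scale. CSF3R was at 0.38 (SE 1.03), and at −1.02 without L + N replicate 1. DEFB128 was at −2.22 (SE 0.650), with all 3 L + N values below 2 of the 3 L − N values.

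For H + N against L − N, 3.58% of the genes tested passed. All 5 genes had negative log2 fold changes, which were −2.19 (SE 1.74) for S100A8, −2.97 (SE 1.81) for S100A9, −3.75 (SE 1.44) for S100A12, −1.54 (SE 1.08) for CSF3R and −4.89 (SE 0.778) for DEFB128. Each of these stayed negative when any 1 library was left out. The libraries of both groups did not overlap for S100A9, S100A12 and DEFB128, and overlapped for S100A8 and CSF3R. The share of all genes tested without overlap is not given, so nothing is read from this. Of the 5 genes, 1 (DEFB128) passed, again among genes chosen on these levels. The comparisons of H − N, L + N and H + N share the L − N libraries and are therefore not independent of each other.

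Over both NCG levels, HF against LF, in which 0.0261% of the genes tested passed, gave −0.51 (SE 1.06) for S100A8, −0.62 (SE 1.12) for S100A9, −1.96 (SE 0.914) for S100A12, −0.81 (SE 0.743) for CSF3R and −3.21 (SE 0.519) for DEFB128. Without H − N replicate 3 the first 4 values were −2.32, −2.73, −3.44 and −1.80. These contrasts average group means on the log2 scale. Mean CPM with all libraries was higher in HF than in LF for S100A8 (2.77 against 1.57) and S100A9 (9.38 against 3.67). It was lower in HF for S100A12 (5.12 against 7.90), CSF3R (12.5 against 18.3) and DEFB128 (0.434 against 4.89). NCG against no NCG, in which 1.8% passed, gave −1.68 (SE 1.09), −2.35 (SE 1.13), −1.79 (SE 0.912), −0.73 (SE 0.742) and −1.68 (SE 0.514) for the genes in the same order. There the removal of H − N replicate 3 moved S100A8 to 0.13, S100A9 to −0.24, S100A12 to −0.31 and CSF3R to 0.26. None of the 5 genes passed in either comparison.

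The interaction of fiber and NCG is the change with NCG on the HF diet minus the change on the LF diet, and 0% of the genes tested passed for it with edgeR. An unadjusted p-value under 0.05 (edgeR) was found for 1967 genes. DESeq2 called 184 of 15351 genes, among them S100A8, S100A9 and S100A12, which were chosen on these levels. By edgeR the S100 genes had the values −6.65 (SE 2.21) for S100A8, −7.96 (SE 2.32) for S100A9 and −6.03 (SE 1.86) for S100A12. NCG went with higher S100 means on the LF diet and with lower ones on the HF diet. Without H − N replicate 3 the 3 values were −3.04, −3.74 and −3.07. CSF3R was at −2.21 (SE 1.49), and at −0.23 without that library, and DEFB128 was at 1.08 (SE 1.06).

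**Figure D2:**
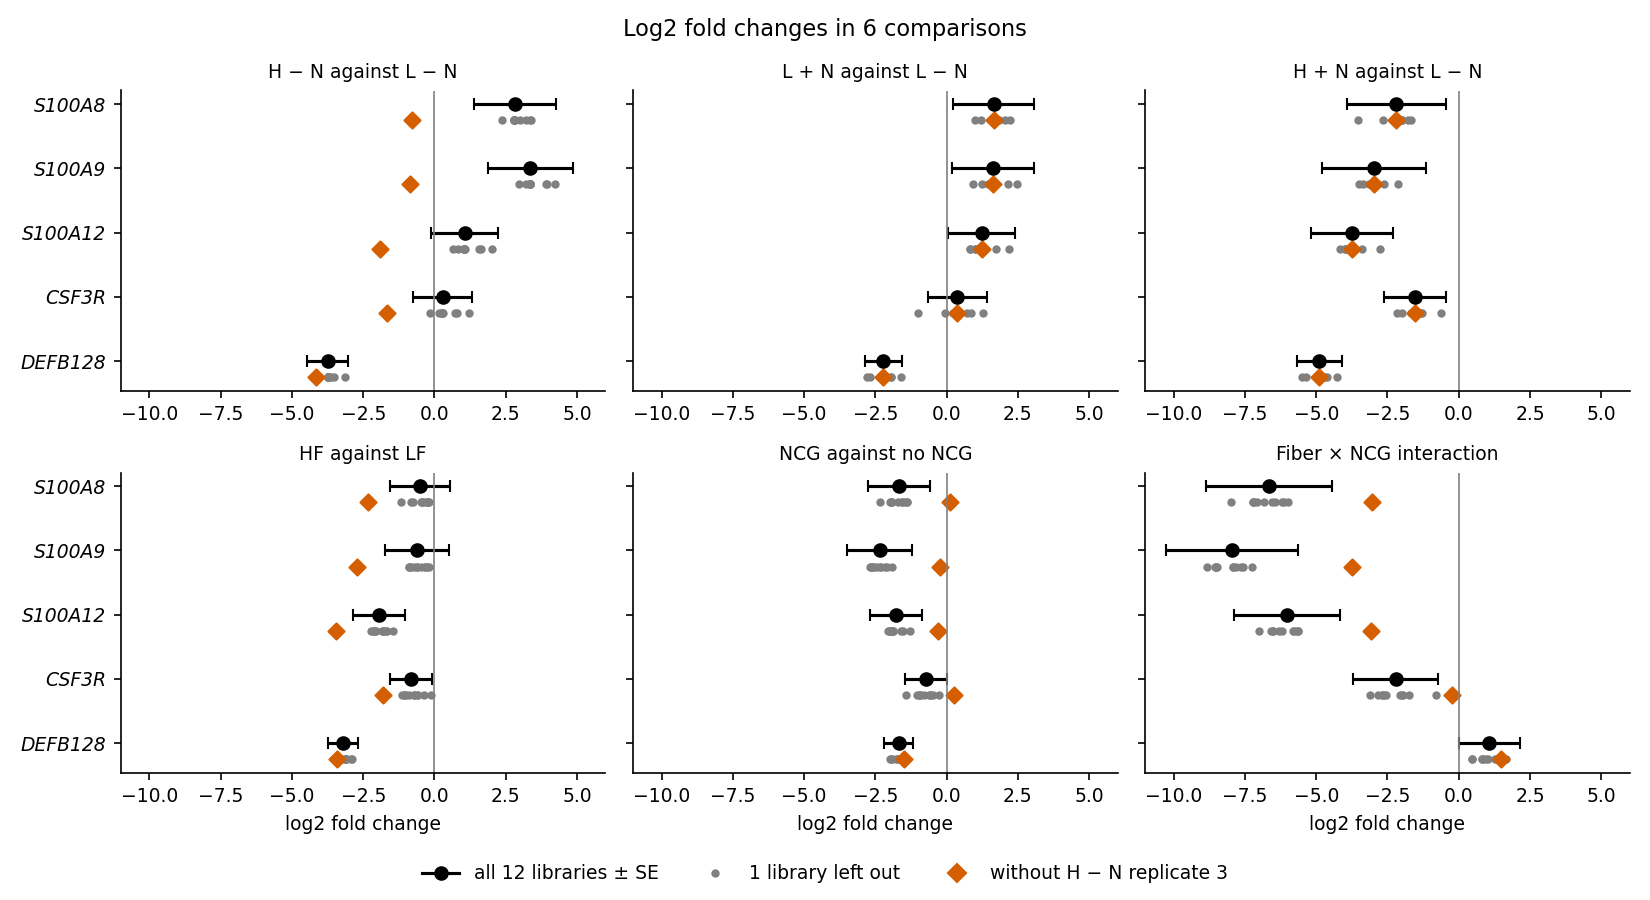
Log2 fold change (horizontal axis) of the 5 genes in the 6 comparisons. Black points are estimates from all 12 libraries with bars of 1 SE, gray points leave out 1 library, and orange diamonds leave out H − N replicate 3. The diamonds of the S100 genes cross 0 in H − N against L − N (S100A9 moves from 3.36 to −0.86), while DEFB128 moves from −3.75 to −4.15 there.

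DEFB128 kept its direction in every comparison when any single library was left out. Its log2 fold change then ran from −4.20 to −3.14 in H − N against L − N, from −2.80 to −1.61 in L + N against L − N, from −5.49 to −4.28 in H + N against L − N and from −3.52 to −2.91 in HF against LF. The counts of the 5 genes that passed moved with the settings, from 0 to 1 in H − N, L + N, HF against LF and NCG against no NCG, from 0 to 2 in H + N and from 0 to 3 for the interaction. The 3 were S100A8, S100A9 and S100A12 with DESeq2, where 184 of all 15351 genes passed. The 2 were S100A12 and DEFB128, with DESeq2 (988 of 15351 genes) or without H − N replicate 3 (631 of 15574 genes). The 1 in H − N became 0 on removal of L − N replicate 2 (−3.14 for DEFB128) or 3 (−3.71), or of H − N replicate 1 (−3.53) or 2 (−3.63), and the 1 in H + N became 0 on removal of L − N replicate 3 (−4.85) or of H + N replicate 1 (−5.49). Both also became 0 in fits of only the groups compared, where 3 of 14798 genes passed in H − N and 87 of 14869 in H + N. Nothing is read from these counts either.

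The 3 S100 genes varied together across libraries. H − N replicate 3 held 47.7% of all reads of the 3 genes, and the 4 highest libraries (with L + N replicate 2, L + N replicate 1 and L − N replicate 2) held 89.8%. The summed level of the 3 genes spanned 253-fold, from 0.380 CPM in H + N replicate 2 to 96.2 CPM in H − N replicate 3. Pearson's r of log2 CPM over the 12 libraries was 0.951 for S100A8 with S100A9, 0.955 for S100A9 with S100A12 and 0.881 for S100A8 with S100A12. After removal of the group means it was 0.930, 0.986 and 0.902, so the genes also moved together within groups. Without the 2 most extreme libraries it was 0.866, 0.971 and 0.802. The values of a library share its depth and composition. The next gene beyond S100A9, PPGRP-S at a distance of 4184 bp, had a mean of 1.47 CPM and an r of 0.0908 with S100A9.

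The proportions of the 3 genes were not fixed. S100A9 made up 66.4% of the S100A9 and S100A12 reads in H − N replicate 3 (95% exact binomial interval 63.6% to 69.1%, 1174 reads). It made up 37.6% in L + N replicate 2 (33.1% to 42.2%, 455 reads), 28.9% in L + N replicate 1 (24.7% to 33.5%, 425 reads) and 26.5% in L − N replicate 2 (20.6% to 33.1%, 204 reads). The interval of H − N replicate 3 lay above those of the 7 other libraries with 37 or more of these reads. H − N replicate 1, of the same group, was second at 46.5% (34.6% to 58.7%, 71 reads). H − N replicate 2 and the H + N libraries held 5 to 13 such reads each, too few to place them. These intervals cover counting error only.

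**Figure D3:**
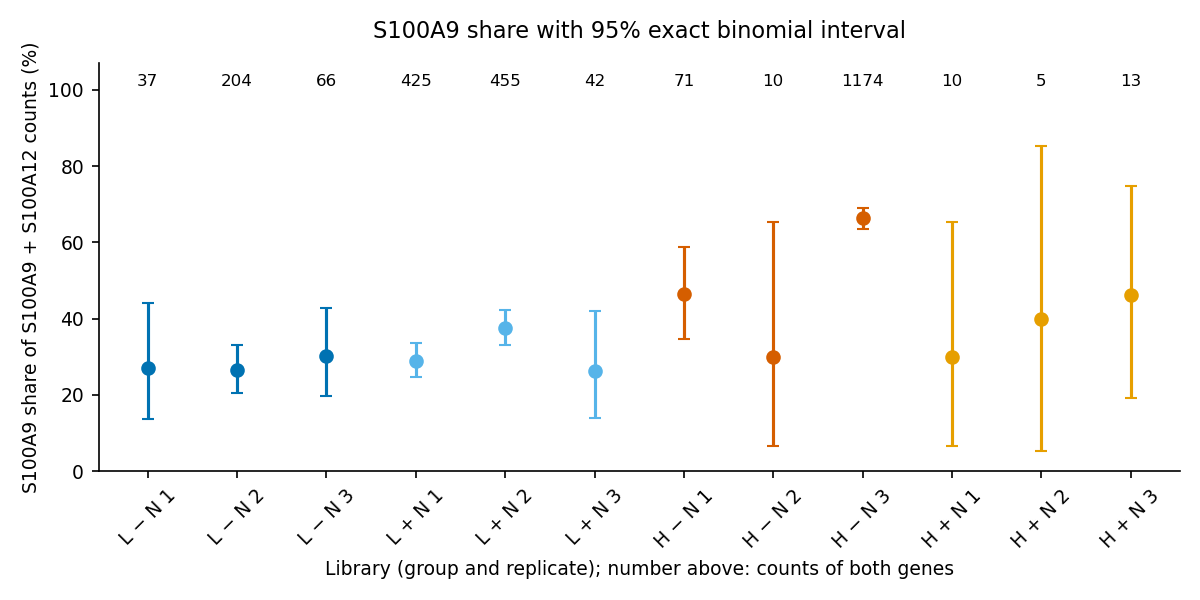
Share of S100A9 in the summed reads of S100A9 and S100A12 (vertical axis, percent) in each library (horizontal axis), with 95% exact binomial intervals as bars and the number of reads above. H − N replicate 3, with 1174 reads, is at 66.4%, while the L − N and L + N libraries are between 26.2% and 37.6%.

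CSF3R went with the S100 genes, with r of 0.833, 0.835 and 0.836 with S100A8, S100A9 and S100A12 over the 12 libraries. It was nevertheless low beside them in the 2 libraries where the S100 genes were highest. For each CPM of the 3 S100 genes together there was 0.323 CPM of CSF3R in L + N replicate 2 and 0.507 CPM in H − N replicate 3, against 1.51 to 9.86 CPM in the other 10 libraries. In L + N replicate 1 and L + N replicate 2, for example, the summed S100 levels were 23.4 and 30.7 CPM, while CSF3R was at 46.6 and 9.89 CPM. DEFB128 had r of 0.346 with S100A8, 0.409 with S100A9, 0.600 with S100A12 and 0.443 with CSF3R.

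The genes most like each of these over the 12 libraries, by Pearson's r of log2 CPM among all genes tested, were of several kinds. For CSF3R they were IL1R2, the decoy receptor for interleukin-1 (r = 0.932), the leukocyte adhesion gene ICAM3 (0.927), the chemokine receptor CXCR2 (0.914), FFAR2, a receptor for short-chain fatty acids (0.909), and the cannabinoid receptor CNR2 (0.907). CXCR2, which guides neutrophils toward CXCL8, was at 30.6 CPM in L + N replicate 1, 26.8 CPM in H − N replicate 3 and 8.15 CPM in L + N replicate 2, and between 0.485 and 6.07 CPM in the other 9 libraries. As with CSF3R, L + N replicate 1 was far above L + N replicate 2.

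For S100A8 the closest genes were S100A9, the metalloreductase gene STEAP4 (r = 0.947), TREM1, an activating receptor of neutrophils and monocytes (0.919), the chemokine CXCL8 (0.913) and LTF, which encodes lactoferrin (0.905). LTF was at 382 CPM in H − N replicate 3 and 228 CPM in L + N replicate 2, and at 18.8 CPM or less in the other 10 libraries, L + N replicate 1 included. CXCL8 was at 143.6, 65.0 and 26.3 CPM in H − N replicate 3, L + N replicate 2 and L + N replicate 1, and at 6.497 CPM or less elsewhere. Thus LTF and CXCL8 put L + N replicate 2 above L + N replicate 1, the reverse of CXCR2 and CSF3R.

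For S100A9 and S100A12 the closest genes included 2 that are expressed by epithelia. These were the chloride channel CFTR (r = 0.938 with S100A9 and 0.915 with S100A12) and the membrane mucin MUC4 (0.902 with S100A12). MUC4 was at 265 CPM in H − N replicate 3, 223.5 CPM in L − N replicate 2 and 184 CPM in L + N replicate 2, and between 12.3 and 68.5 CPM in the others. The iodide transporter SLC5A5 (0.937) and MCEMP1 (0.941) completed the genes closest to S100A12, and STEAP4 (0.953) and ANOS1 (0.928) those closest to S100A9. MCEMP1 overlaps PCP2 in the annotation and the name ANOS1 is carried by 2 genes of the table, so both values are uncertain.

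For DEFB128 the closest genes were FJX1 (r = 0.962), the choline kinase CHKB (0.957), GGTA1P (0.944), the apoptosis regulator BAX (0.943) and KIAA1644 (0.929). They varied far less than DEFB128. CHKB was at 28.6, 38.4 and 38.8 CPM in L − N, and at 23.05 to 29.4 CPM in the other 9 libraries. BAX was at 31.95, 46.2 and 38.8 CPM in L − N, and at 26.7 to 33.6 CPM elsewhere. They shared with DEFB128 the high level in L − N replicates 2 and 3, but not that alone. Without these 2 libraries, the most extreme for DEFB128, r was 0.895 for FJX1, 0.924 for CHKB and 0.849 for GGTA1P. It was 0.871 for BAX and 0.803 for KIAA1644. FJX1 overlaps PAMR1, and its value is uncertain.

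**Figure D4:**
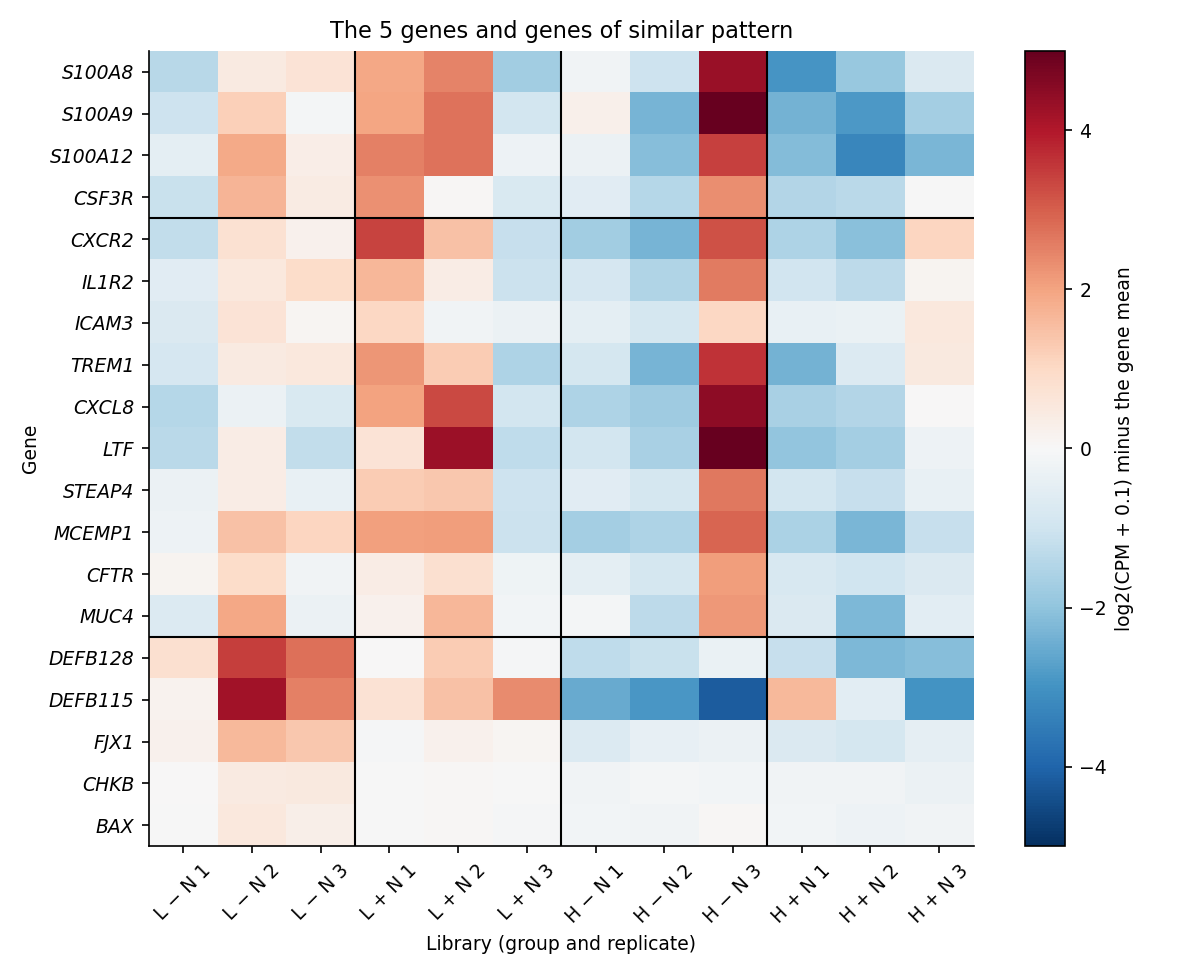
Level of the S100 genes, CSF3R, DEFB128 and genes of similar pattern (rows) in the 12 libraries (columns), as log2(CPM + 0.1) minus the mean of the gene, from blue (below the mean) to red (above). H − N replicate 3 is high for the S100 genes, CXCL8 and LTF and is not for DEFB128 or DEFB115, and CXCR2 (30.6 against 8.15 CPM) and LTF (18.8 against 228 CPM) differ in direction between L + N replicates 1 and 2.

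Among the wider set of neutrophil genes, 40 of 47 listed names were in the table and 33 were tested. Of these 33, 12 genes (36.4%) had r above 0.5 with the summed S100 level, against 4.57% of all genes tested. Among them were CXCR2, IL1R2, TREM1, LTF, and, named after their values were seen, MMP25, PADI4, LCN2, VNN2, NCF1, CHI3L1 and OLFM4. The granule enzyme gene MPO, which neutrophils transcribe mainly in the bone marrow, was at 0 in 10 of 12 libraries and at no more than 0.191 CPM in the others. ELANE, which overlaps MED16, was between 0.470 and 1.83 CPM, with 0.552 CPM in H − N replicate 3. Both were also named after their values were seen. NPG4, PMAP-23, PMAP-36 and PR39, which encode cathelicidins of the pig, had 0 counts in all libraries. The listed neutrophil genes summed to 2019 to 2516 CPM for L − N libraries, 1422 to 2130 for L + N libraries, 1546 to 4293 for H − N libraries and 1410 to 1918 for H + N libraries. Abundant genes weighed most in these sums, such as SLPI with 977 CPM in L − N replicate 1 and VNN2 with 1765 CPM in H − N replicate 3.

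The listed neutrophil genes did not move as one group by diet. Against L − N, in H − N 1 of 33 was higher and 7 were lower past the threshold, where 137 of all 15351 genes were higher and 309 lower (2.91% in all), with a median log2 fold change of 0.18 against 0.03 for all genes tested. The gene that rose was BPI, which encodes the bactericidal/permeability-increasing protein of neutrophil granules. BPI had means of 0.943 ± 0.138 CPM for L − N libraries, 8.53 ± 1.34 for L + N libraries, 5.23 ± 2.504 for H − N libraries and 4.27 ± 2.56 for H + N libraries (SD, n = 3), and no library of the other groups overlapped L − N. By edgeR its log2 fold change was 3.17 (SE 0.483, adjusted p = 0.00818) in L + N, 2.46 (SE 0.477, adjusted p = 0.0241) in H − N and 2.18 (SE 0.475, adjusted p = 0.0264) in H + N against L − N. Its r with the summed S100 level was −0.0554. The rise in L + N held with each library left out, whereas in H − N it was lost on removal of L − N replicate 2 or 3 or of H − N replicate 1 or 2, and in H + N on removal of L − N replicate 2 or 3 or of H + N replicate 1 or 2, with log2 fold changes of 1.55 to 2.77 over these alternatives. In fits of only the groups compared, BPI still passed in L + N, but not in H − N or H + N.

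The 7 neutrophil genes that fell in H − N included the oxidase subunits CYBB (listed as GP91-PHOX) and NCF4, and, outside the naming rule and chosen after their values were seen, the integrins ITGAM and ITGB2, FCGR3A and ADGRE1. Macrophages and monocytes are known to express these genes as well. CYBB was at −1.99 on the log2 scale (SE 0.355, edgeR adjusted p = 0.0194). NCF4, which overlaps PVALB, was at −1.66 (SE 0.315, edgeR adjusted p = 0.0232). Markers of macrophages moved with them, since 7 of 11 fell in H − N (2.91% of all genes tested passed there), with a median of −1.62 against 0.03 for all genes tested, and none of the 11 had r above 0.5 with the summed S100 level. The 11 genes, none of which was at 0 throughout, summed to 1479 to 3916 CPM for L − N libraries, 1226 to 1776 for L + N libraries, 745 to 1094 for H − N libraries and 1174 to 1501 for H + N libraries. The part of macrophages in the values of the shared genes was not tested. Of the 8 neutrophil and 7 macrophage genes called in H − N, none passed on removal of L − N replicate 2 or 3, or of H − N replicate 1, and none of the 7 macrophage genes passed on removal of H − N replicate 3. None of the 8 or the 7 passed in the fit of only the groups compared. With the replicate number as a block, 5 of the 8 and 6 of the 7 passed, and ITGAM, ITGB2 and FCGR3A did not.

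The receptors and partners of the S100 proteins mostly had lower values in the other groups than in L − N. All 11 tested genes had negative values in H − N and L + N, and 10 of 11 in H + N, with medians of −1.13, −0.96 and −1.02 against 0.03, −0.02 and 0.02 for all genes tested. CD14, the co-receptor of TLR4, passed in each of the 3 groups by edgeR, at −1.56 (SE 0.263, adjusted p = 0.0192) in H − N, −1.42 (SE 0.261, adjusted p = 0.0115) in L + N and −1.31 (SE 0.260, adjusted p = 0.0218) in H + N. LY96, the subunit of TLR4 that binds ligands, passed at −1.13, −1.07 and −1.02 (edgeR adjusted p = 0.0229, 0.0139 and 0.0232). TLR2 passed at −1.66, −1.10 and −1.32 (edgeR adjusted p = 0.0234, 0.0488 and 0.0316). TLR4 itself had means of 97.6 ± 26.2 CPM for L − N libraries, 62.3 ± 14.2 for L + N libraries, 56.7 ± 4.02 for H − N libraries and 51.5 ± 12.04 for H + N libraries (SD, n = 3), and passed in none. Without L − N replicate 3 none of these calls remained in any of the 3 comparisons, and without L − N replicate 2 those of LY96 and TLR2 were lost in all 3. TLR2 in L + N passed in 4 of 17 alternatives, and among the fits that left out 1 library only on removal of L − N replicate 1 or of H + N replicate 3. It was also lost in H − N on removal of H − N replicate 2 or 3, and in H + N on removal of H + N replicate 2. LY96 was also lost in H − N on removal of H − N replicate 3, and in L + N on removal of L + N replicate 3. Also lost were all calls of these genes in H − N without H − N replicate 1, in L + N without L + N replicate 2, and in H + N without H + N replicate 1 or 3. Fits of only the groups compared lost all their calls in H − N and H + N, and that of TLR2 in L + N. With the replicate number as a block, TLR2 was lost in L + N and H + N. These receptor genes are expressed by macrophages too, whose marker levels are given above.

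Of the other S100 genes, 12 of 15 in the table were tested and none passed in any of the 6 comparisons by edgeR. The most abundant of them, S100A11, S100A6 and S100A10, had means of 176.6, 162 and 161 CPM, well above S100A8, S100A9 and S100A12, and had r of 0.154, 0.537 and 0.279 with the summed level of those 3 genes. Only S100A6 and, named after its values were seen, S100A2 (r = 0.741) were above 0.5. AGER, the receptor of S100A12, had too few counts to be tested, with a mean of 0.399 CPM. It was also named after its values were seen.

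The list for CSF3R signaling also held receptors of other growth factors, such as CSF1R, which was counted among the macrophage markers too. Of the 25 listed genes, 23 were tested. None passed in L + N against L − N, 1 passed in H − N and 3 passed in H + N, all of them lower than in L − N, where 3.99%, 2.91% and 3.58% of all genes tested passed. The single gene in H − N is near the share of all genes. Among these were the macrophage growth factor receptor CSF1R in H − N (−1.66, SE 0.307, edgeR adjusted p = 0.0225) and H + N (−1.35, SE 0.304, edgeR adjusted p = 0.0284), and in H + N the transcription factor SPI1 (−1.26, SE 0.324, edgeR adjusted p = 0.0403). None of the 3 calls in H + N remained on removal of L − N replicate 2 or 3 or of H + N replicate 1 or 3, and SPI1 was also lost on removal of replicate 2 of L + N, of H − N or of H + N, so that it passed in 8 of 17 alternatives. The CSF1R call in H − N was lost on removal of L − N replicate 2 or 3 or of H − N replicate 1 or 3. No call of this list remained in fits of only the groups compared, and SPI1 was also lost with the replicate number as a block. The medians of the list were −0.33 in H − N, −0.55 in L + N and −0.43 in H + N. CSF3, the ligand of CSF3R, was between 0.336 and 1.26 CPM in the 12 libraries, had an r of 0.318 with CSF3R, and is named after its values were seen. JAK1 and PTPN11, the most abundant genes of the list beside CSF1R, had means of 379 and 217 CPM, and r of 0.0445 and 0.349 with the summed S100 level.

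Genes that attract neutrophils had the highest share, among the 15 lists, of genes varying with the S100 genes, at 8 of 15 tested (53.3%) with r above 0.5, against 4.57% of all genes tested. The chemokine AMCF-II was at 382 CPM in H − N replicate 3, 95.1 CPM in L + N replicate 2 and 9.75 CPM in L + N replicate 1, and at 6.62 CPM or less in the other 9 libraries. The adhesion gene ICAM1 had a mean of 36.75 CPM and an r of 0.631. By diet, 2 genes of this list passed, 1 in H − N and 1 in H + N, where 2.91% and 3.58% of all genes tested passed. C5AR1, the receptor for the complement peptide C5a, was at −1.48 (SE 0.377, edgeR adjusted p = 0.0470) in H − N against L − N. This call held only without L − N replicate 1 among the 12 libraries left out in turn. SELE, the endothelial selectin that leukocytes roll on, was at 2.23 (SE 0.542, edgeR adjusted p = 0.0337) in H + N against L − N, with 11.07, 6.68 and 30.65 CPM in H + N and 2.88 to 4.30 CPM in L − N. It no longer passed on removal of any L − N replicate, of L + N replicate 1, or of H + N replicate 1 or 3, with log2 fold changes of 1.37 to 2.58 over its alternatives. The calls of C5AR1 and SELE were also lost in fits of only the groups compared and with the replicate number as a block. The r of SELE with the summed S100 level was −0.211.

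DEFB128 lies in a cluster of β-defensin genes, most of which were hardly counted in this tissue. DEFB129, 5827 bp away on one side, had 3 reads over the 12 libraries, and DEFB127, 8226 bp away on the other, had 20. DEFB125 had 0 reads, DEFB121 had 1 and DEFB116 had 11. DEFB115 was the only other gene of the cluster tested, with 1096 reads against 508 for DEFB128. The L − N libraries had 1.91, 32.9 and 10.1 CPM of it, and the L + N libraries 2.86, 4.83 and 9.02 CPM. The H − N libraries had 0.207, 0.139 and 0 CPM, and the H + N libraries 5.34, 1.14 and 0.123 CPM. All H − N libraries were therefore below all L − N and L + N libraries, as for DEFB128, while H + N overlapped both of those groups. The log2 fold change of DEFB115 was −6.85 (SE 1.49, edgeR adjusted p = 0.0309) in H − N against L − N. It ran from −7.61 to −5.54 over the alternatives and it no longer passed on removal of L − N replicate 2 or 3, or of any H − N replicate. Nor did it pass in the fit of only the groups compared or with the replicate number as a block. The r of DEFB115 with DEFB128 was 0.715.

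The wider list of antimicrobial genes held 42 genes in the table, of which 19 had enough counts to be tested, DEFB128 and the S100 genes not among them. Of these, in H − N against L − N, BPI and the chemokine CCL28 (1.70, SE 0.389, edgeR adjusted p = 0.0352, named after its values were seen) were higher, and DEFB115 and the lysozyme gene LYZ were lower, 4 of 19 against 2.91% of all genes tested. CCL28 passed in 8 of 17 alternatives, and not on removal of L − N replicate 2 or 3, of L + N replicate 1 or 2, of H − N replicate 1 or 3, or of H + N replicate 1. The L − N libraries had 163, 2044 and 797 CPM of LYZ, and the L + N libraries 395, 274.5 and 78.3 CPM. The H − N libraries had 55.01, 47.0 and 49.98 CPM and the H + N libraries 38.0, 256.5 and 51.4 CPM, and the log2 fold change in H − N was −4.30 (SE 0.997, edgeR adjusted p = 0.0359). It no longer passed on removal of L − N replicate 2 or 3, of L + N replicate 2, or of any H − N replicate. WFDC2, an epithelial protease inhibitor, was lower in H + N (−3.25, SE 0.796, edgeR adjusted p = 0.0344), and its value in L − N replicate 2, at 287.5 CPM, was far above the 20.9 and 55.7 CPM of the others of that group. Without L − N replicate 2 it was at −1.58 and did not pass, and it also failed to pass on removal of L − N replicate 3, of L + N replicate 3 or of any H + N replicate. PGLYRP2 was lower with NCG (−1.90, SE 0.474, edgeR adjusted p = 0.0355), and did not pass in 8 of the 12 fits that left out 1 library. No call of this list in H − N or H + N remained in fits of only the groups compared. With the replicate number as a block, the calls of CCL28, DEFB115, LYZ, WFDC2 and PGLYRP2 were lost. SLPI, the most abundant gene of the list, had means of 594 ± 354 CPM for L − N libraries, 411 ± 13.5 for L + N libraries, 734.5 ± 49.5 for H − N libraries and 612 ± 241 for H + N libraries (SD, n = 3). The median log2 fold changes of the list were 0.04 in H − N, −0.52 in L + N and −0.59 in H + N, and 6 of 19 genes (31.6%) had r above 0.5 with the summed S100 level.

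Markers of other cell types differed in how they varied with the S100 genes. The median r with the summed S100 level was 0.433 over the 9 epithelial genes, above the 0.319 of the 33 neutrophil genes, and 2 of the 9 (22.2%, against 4.57% of all genes tested) had r above 0.5. These were ELF3 (0.805) and KRT19 (0.615), named after their values were seen. None of the 14 T and NK cell genes, 5 mast cell and eosinophil genes, 5 erythrocyte and platelet genes, 7 stromal genes, 5 smooth muscle genes and 6 endothelial genes tested had r above 0.5 with the summed S100 level, as against 1 of 8 genes of B and plasma cells. Erythrocyte and platelet genes, which would come with blood, summed to 71.9 to 765 CPM for L − N libraries, 36.7 to 89.6 for L + N libraries, 40.8 to 64.1 for H − N libraries and 37.4 to 304 for H + N libraries, and their median r with the S100 level was −0.382. Smooth muscle genes summed to 1594 to 5050 CPM in L − N and to 789 to 1537 CPM in the other 3 groups. Epithelial genes summed to 1061 to 1572 CPM for L − N libraries, 1523 to 1596 for L + N libraries, 1599 to 2424 for H − N libraries and 1265 to 1416 for H + N libraries. The part of these cells in the levels of the 5 genes was not tested.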

How the data were processed

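Poly(A) RNA of endometrium was sequenced in 12 strand-specific libraries, 3 per group, assigned by the group codes in their titles. The authors deposited raw read counts per gene, without normalization, with the FPKM values the authors made from them (recomputed here from counts, length and totals to within 1.9e-05 percent) and gene coordinates on Sscrofa11.1. The submitters' processing notes name fastp 0.22.0, HISAT2 2.1.0 and HTSeq 0.9.1, while the counting strand is not given in the sources used here, so genes overlapping another are uncertain. All 20674 genes matched RefSeq of that assembly, and 54 share a name with another.

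Counts were analyzed with edgeR 4.0.16, on limma 3.58.1 and R 4.3.3. After filterByExpr, 15351 genes were scaled by TMM and fitted with 1 mean per group over all 12 libraries (8 residual degrees of freedom), and comparisons were contrasts tested by quasi-likelihood with Benjamini-Hochberg adjustment, at an adjusted p under 0.05 and an absolute log2 fold change above 1, the thresholds of the paper. HF, NCG and interaction contrasts combine the 4 means. The SE is the absolute log2 fold change over the square root of F. Log2 CPM used a prior count of 2, and 3 counts were taken as the floor. The fitting was tested on simulated data. The biological coefficient of variation was 0.269, and replicates differed beyond counting error, with a chi-square per gene of 22.8 to 98.6. P-values measure the spread between these libraries only.

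The members and the gene lists were chosen with earlier results of these data known, and lists were described by counts and medians without a set test. The genes named were the 5 members, the 3 most abundant genes of each list, up to 4 differentially expressed genes per list with the smallest adjusted p, the 5 genes with the highest r with each member, and neighbors. Genes named otherwise are marked, and some genes under this rule are not reported here. Alternatives were RLE scaling, no filter, DESeq2 1.42.0, the groups compared alone, a replicate block, and each library left out.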

Additional observations from a re-analysis of the deposited data

How the results depend on the processing

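Of 494 log2 fold changes of the 5 genes recomputed under the alternatives, 486 moved by less than the pooled SD of the gene within groups and 8 by more. That SD was wide, from 0.86 for DEFB128 to 2.19 for S100A9, so the 486 include large moves. In NCG against no NCG without H − N replicate 3, for example, S100A9 went from −2.35 to −0.24 and S100A8 from −1.68 to 0.13. The number of differentially expressed genes also depended on the setting. In H − N against L − N it was 446 over all 12 libraries, 913 with DESeq2, 3 with only the groups compared and 254 with the replicate block, and with a library left out it was lowest, at 0, without H − N replicate 1 and highest, at 1120, without L − N replicate 1. In L + N against L − N it was 613 and ran from 143 (without L − N replicate 3) to 911 (without L − N replicate 1). In H + N against L − N it was 549, 988 with DESeq2 and 87 with only the groups compared, where 4 of the 5 genes could be fitted, and was lowest, at 1, without H + N replicate 1 and highest, at 948, without L − N replicate 1. HF against LF gave 4, with 290 by DESeq2, 1 with the replicate block, and 0 to 331 with a library left out. NCG against no NCG gave 276, with 157 to 340, and the interaction gave 0, with 184 by DESeq2 and 0 to 346, the highest in both HF and the interaction without L − N replicate 1. Whether the replicate numbers pair the libraries was not settled. Over 18 pairs of same-numbered libraries the correlation of deviations ran from −0.322 to 0.283, and was above 0.1 in 3. Pairs with different numbers were not computed, so these correlations cannot decide it. With the replicate block, 535 genes passed in L + N, 397 in H + N, 241 for NCG and 0 for the interaction. The causes were not tested. Counts of all 5 genes except CSF3R were under 10 in H + N. Low counts were also found in other groups, such as those of S100A8 with 3 in L − N replicate 1, 2 in L + N replicate 3 and 4 in H − N replicate 2. How far depth and spread between libraries each limited the values was not tested.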

Other observations

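Some genes of the lists were high almost only in the libraries where the S100 genes were highest, and are named here after their values were seen. SAA3, an acute-phase protein made by epithelia, was at 1127 CPM in H − N replicate 3, at 27.96 CPM in L − N replicate 2 and at 16.5 CPM or less in the other 10 libraries. VNN2, a pantetheinase gene, was at 1765 CPM in H − N replicate 3, at 251 CPM in L + N replicate 2 and at 115 CPM or less elsewhere. OLFM4, found in epithelia and in some neutrophils, was at 115 CPM and 24.6 CPM in the same pair of libraries and at 0.785 CPM or less in the others, with 0 in all 3 L − N libraries. L + N replicate 1, the third of the libraries rich in S100 reads, had 7.28 CPM of SAA3, 87.75 CPM of VNN2 and 0.776 CPM of OLFM4, each within the range of the remaining 9 libraries. LCN2, the siderophore-binding protein of neutrophil granules and epithelia, had a different order, with 218.5 CPM in L − N replicate 2, 187 CPM in H − N replicate 3, 178 CPM in L + N replicate 2 and 125 CPM in L + N replicate 1, and 18.8 to 68.4 CPM in the others. STAT3, which acts below CSF3R, and its target SOCS3 were at 258 and 65.9 CPM in H − N replicate 3, against 105 to 175 CPM and 14.3 to 28.2 CPM in the other 11 libraries.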
